A study of Homo sapiens with 4 samples.

Results

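The genes of MHC class I antigen presentation were followed in A375 and SK-MEL-28, established human lines from melanoma, with and without knockdown of the long non-coding RNA LINC00622. The 9 genes, HLA-B, HLA-C, HLA-E, B2M, TAP1, TAP2, TAPBP, ERAP1 and NLRC5, were chosen by name and are 9 of the 17755 genes of the table, with 1 row each under an Ensembl identifier. Each line was transfected with a control siRNA (siNC) or with siRNA against LINC00622 (siLINC00622), kept for 6 h in DMEM without serum and then for 24 h in DMEM with 10% serum. Poly(A) RNA was sequenced in 4 libraries, A375 siNC, A375 siLINC00622, SK-MEL-28 siNC and SK-MEL-28 siLINC00622, with 1 library per condition. The labels do not name the siRNA used for sequencing when several were designed, and do not say whether the cultures were separate. The p-values therefore do not measure a spread between replicate cultures. They rest on what line and treatment leave unexplained in these 4 libraries, with 1 residual degree of freedom, and on a spread shared over genes. The 2 libraries of a line differ in treatment and are not replicate cultures of 1 condition.

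MHC class I molecules show peptides from inside the cell to CD8+ T cells. A heavy chain, encoded by the HLA genes, pairs with the light chain B2M. Peptides made by the proteasome are pumped into the endoplasmic reticulum by the transporter TAP, trimmed there by aminopeptidases such as ERAP1, and loaded onto the heavy chain with the help of tapasin, the product of TAPBP. NLRC5 is a transactivator of class I genes, and melanomas are known for reduced class I presentation.

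Library totals were between 31269923 and 36384819 counts, and the members had between 174 and 17350 counts in a library. LINC00622 had 135 and 86 counts in the siNC and siLINC00622 libraries of A375, and 309 and 135 in those of SK-MEL-28. On the log2 scale, siLINC00622 over siNC gave -0.84 in the first line and -1.21 in the second, and its effect across the lines had an adjusted p of 0.101 in edgeR's quasi-likelihood test. The melanocytic markers summed to 133 to 166 FPKM in A375 and to between 2061 and 2210 FPKM in SK-MEL-28, and all 8 were higher in SK-MEL-28. SOX10 alone gave 118 and 149 FPKM of the sums in A375, siNC first, and S100B, the next highest, 5.54 and 8.40. Of 12 leukocyte markers, 10 were not listed in the table, and LYZ and LAPTM5 together stayed at or below 3.12 FPKM. FPKM is the deposited count per kilobase of gene length, scaled to library size. In bulk RNA, fewer cells that express a gene and less RNA per cell cannot be told apart.

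Of the 9 genes, 6 lie on chromosome 6 in GRCh38 by the GENCODE 29 annotation: HLA-E at chr6:30489467-30494205 on the plus strand, and on the minus strand HLA-C at chr6:31268749-31272130, HLA-B at chr6:31269491-31357188, TAP2 at chr6:32821833-32838780, TAP1 at chr6:32845209-32853978 and TAPBP at chr6:33299694-33314387. B2M is at chr15:44711487-44718877 on the plus strand, ERAP1 at chr5:96760810-96808100 on the minus strand and NLRC5 at chr16:56989485-57083531 on the plus strand. The deposited table has no coordinates, and these positions were looked up by Ensembl identifier. The HLA-B model in that annotation overlaps part of HLA-C on the same strand and, among other genes, RPL3P2 on the other strand. TAP1 overlaps PSMB9 and PSMB8-AS1, ERAP1 overlaps CAST and NLRC5 overlaps AC023825.1, each on the other strand, and TAP2 overlaps AL669918.1 on its own strand. Use of strand in the counting is not stated, so reads of pairs on opposite strands cannot be told apart. For pairs on the same strand, as HLA-B with HLA-C, strand would not separate the reads.

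The promoters of HLA-B, HLA-C, B2M and TAP2 are shown because HLA-B and HLA-C had lower levels in SK-MEL-28 together, B2M did not pass the test between the lines, and TAP2 had the lowest knockdown ratio. RefSeq promoter windows (GRCh38.p14) were held for 7 of the 9 members. Each sequence below is the part of the 250 bases before the RefSeq start that lies outside the GENCODE 29 model of its gene, on the gene's strand: HLA-B chr6:31357189-31357429, HLA-C chr6:31272131-31272342, B2M chr15:44711267-44711486 and TAP2 chr6:32838781-32838989. Capitals mark the letters of an interferon-stimulated response element (ISRE, searched as TTTC, any 2 bases and TTTC), an NF-kB site (GGG, any 5 bases and CC), a CCAAT box (CCAAT) or a cyclic AMP response element core (TGACG), each searched on both strands, with overlapping matches joined.
HLA-B: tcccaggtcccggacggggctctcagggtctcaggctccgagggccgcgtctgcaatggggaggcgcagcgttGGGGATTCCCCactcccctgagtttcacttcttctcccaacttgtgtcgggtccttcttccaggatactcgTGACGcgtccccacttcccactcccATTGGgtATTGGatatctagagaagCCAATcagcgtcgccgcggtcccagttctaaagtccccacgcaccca
HLA-C: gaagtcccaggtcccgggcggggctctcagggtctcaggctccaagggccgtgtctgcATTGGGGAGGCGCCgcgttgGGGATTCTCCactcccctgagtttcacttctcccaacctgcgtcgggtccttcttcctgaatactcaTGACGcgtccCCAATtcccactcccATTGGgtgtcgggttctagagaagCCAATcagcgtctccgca
B2M: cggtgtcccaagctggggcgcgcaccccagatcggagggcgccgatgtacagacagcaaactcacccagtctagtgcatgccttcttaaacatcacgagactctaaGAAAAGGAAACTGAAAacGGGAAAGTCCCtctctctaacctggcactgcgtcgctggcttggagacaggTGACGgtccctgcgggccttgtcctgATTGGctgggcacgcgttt
TAP2: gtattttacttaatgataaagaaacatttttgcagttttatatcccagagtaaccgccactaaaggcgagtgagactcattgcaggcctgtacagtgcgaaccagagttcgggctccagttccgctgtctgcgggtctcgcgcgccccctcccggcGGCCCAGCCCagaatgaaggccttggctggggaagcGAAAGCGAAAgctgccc
The whole 250-base windows of HLA-B and HLA-C were 89.0% identical over an alignment of 254 columns. Both held NF-kB, TGACG and CCAAT letters, with 3 CCAAT matches in HLA-B and 4 in HLA-C. ISRE letters were in the windows of B2M, TAP1, TAP2 and TAPBP, 4 of the 7 members with a window, and in 3.02% of all 35116 promoter windows. The other letters are common, with NF-kB letters in 54.4%, CCAAT in 32.0% and TGACG in 21.2% of all windows. Letters for a gamma-interferon activation site (TTCNNNGAA) were found in a window of TAP1 and in 6.57% of all windows. A match is a description of the letters, and the strict ISRE letters miss elements with other spacing or bases.

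The heavy chains did not differ between the lines in 1 direction. HLA-B and HLA-C, which present peptides to T cells, were lower in SK-MEL-28, and HLA-E, which presents leader peptides to NK cell receptors, was higher. HLA-B was at 14.8 FPKM in A375 siNC, 15.2 in A375 siLINC00622, 4.72 in SK-MEL-28 siNC and 4.43 in SK-MEL-28 siLINC00622. Both SK-MEL-28 libraries were below both A375 libraries, and the log2 difference of SK-MEL-28 minus A375 was -1.54 (SE 0.11), or 2.92-fold lower (edgeR adjusted p = 2.27e-05). HLA-C was at 23.3, 27.2, 10.0 and 10.3 FPKM in the same order. Its libraries did not overlap between the lines either, with a log2 difference of -1.14 (SE 0.11; edgeR adjusted p = 8.3e-05). HLA-E was at 32.9, 34.7, 66.8 and 69.4 FPKM, with both SK-MEL-28 libraries above both A375 libraries. Its log2 difference was 1.18 (SE 0.09; edgeR adjusted p = 2.61e-05).

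HLA-F, a non-classical heavy chain that is not one of the 9 genes, had 58, 71, 2490 and 2652 counts in the same order and a log2 difference of 5.49 (edgeR adjusted p = 2.88e-07). HLA-L, a heavy chain pseudogene, differed by 1.73 and HLA-H, also a pseudogene, by -1.32, the latter on 28 counts or fewer. With the counts of HLA-B, HLA-C, HLA-F, HLA-H and HLA-L summed as 1 gene, the log2 difference was 0.27, opposite in direction to that of HLA-B and HLA-C (edgeR adjusted p = 0.0327), while HLA-B and HLA-C alone summed gave -1.29 (edgeR adjusted p = 3.32e-05). The first sum leaves out HLA-E and was chosen after seeing the data, and HLA-F gave 2490 of its 3927 counts in SK-MEL-28 siNC. The lower values hold for HLA-B and HLA-C as counted, while HLA-E and HLA-F were higher in SK-MEL-28. Heavy chain genes are similar in sequence and polymorphic, so reads can be lost or split between them. Such loss can depend on the alleles of a line, and the values of each heavy chain are uncertain to that extent. How reads with several matches were counted is not stated.

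**Figure D1:**
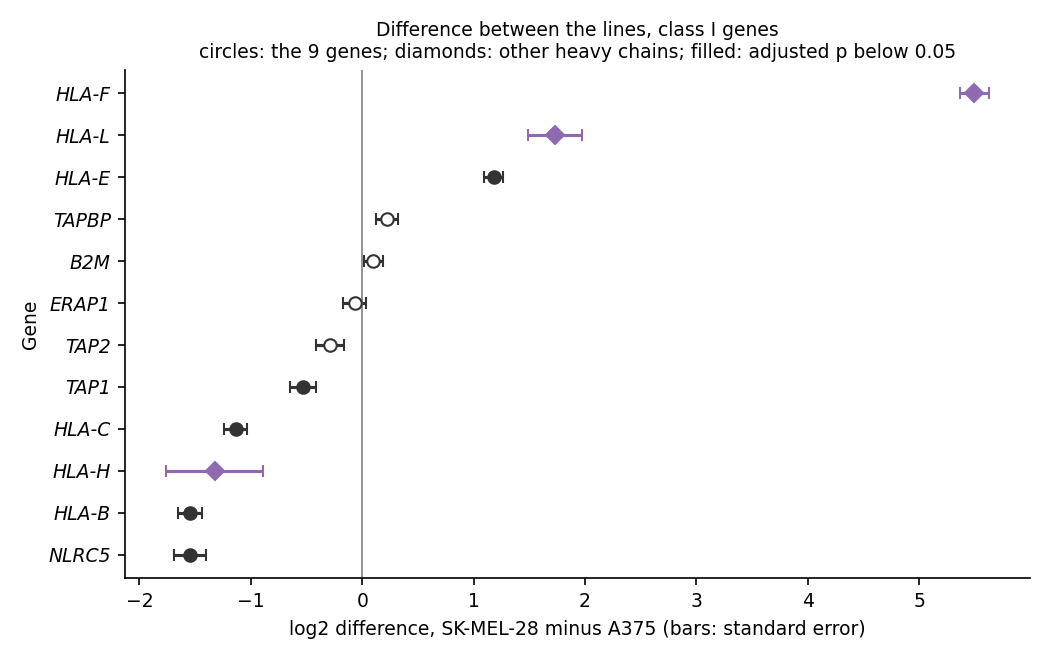
Log2 difference of SK-MEL-28 minus A375 (horizontal axis, bars are standard errors) for the 9 genes (circles) and 3 other class I heavy chain genes (diamonds), filled where the edgeR adjusted p is below 0.05. HLA-B, at -1.54, and HLA-C, at -1.14, lie left of 0, and HLA-E, at 1.18, and HLA-F, at 5.49, lie right of it.

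B2M, the shared light chain, had the highest FPKM of the 9 genes in every library, at 78.0, 87.4, 79.7 and 77.7. The libraries of the lines overlapped, and the log2 difference of 0.10 (SE 0.09) did not pass the test (edgeR adjusted p = 0.337). B2M stood at 5.27 times the FPKM of HLA-B in A375 siNC and at 16.9 times in SK-MEL-28 siNC. Levels between genes depend on the length used, since the deposited length of B2M is 5455 bases and its principal transcript in GENCODE 29 has 1081. Per kilobase of the latter, B2M stood at 394 in A375 siNC and stayed the highest of the 9 in every library.

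**Figure D2:**
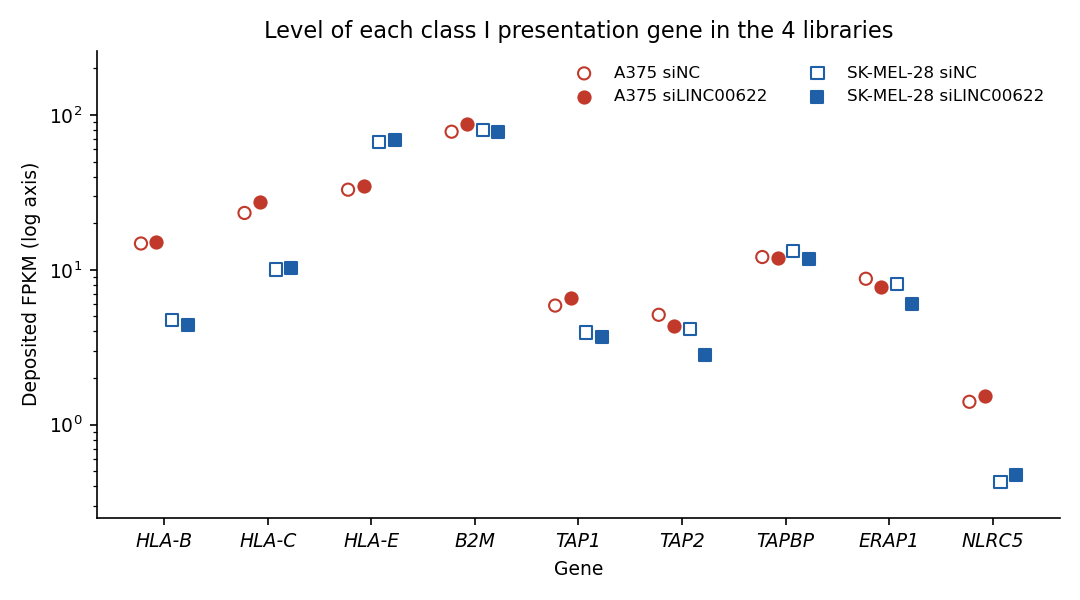
Deposited FPKM (vertical log axis) of the 9 genes in the 4 libraries, with A375 as circles and SK-MEL-28 as squares, open for siNC and filled for siLINC00622. HLA-B, HLA-C, TAP1, TAP2 and NLRC5 have both squares below both circles, HLA-E has both above, and NLRC5, between 0.424 and 1.54 FPKM, is the lowest in every library.

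TAP1 and TAP2 encode the subunits of the peptide transporter. TAP1 was at 5.88 and 6.54 FPKM in A375 and 3.94 and 3.69 FPKM in SK-MEL-28, siNC first. It was lower in SK-MEL-28, with a log2 difference of -0.53 (SE 0.12; edgeR adjusted p = 0.0061), but without the A375 siLINC00622 library the call was lost (log2 difference -0.44, adjusted p = 0.0855). TAP2 was at 5.12, 4.33, 4.17 and 2.82 FPKM, and its log2 difference of -0.29 (SE 0.12) did not pass the test (edgeR adjusted p = 0.0737). Leaving out 1 library moved it between -0.56, without SK-MEL-28 siNC, where it passed (adjusted p = 0.0221), and -0.027, without SK-MEL-28 siLINC00622 (adjusted p = 0.913). TAPBP, the chaperone that bridges the transporter and the heavy chain, was at 12.1, 11.9, 13.2 and 11.8 FPKM, and ERAP1 at 8.75, 7.71, 8.07 and 6.02. Both overlapped between the lines and neither passed the test (edgeR adjusted p = 0.0817 and 0.594).

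NLRC5 had 544 and 694 counts in A375 and 174 and 200 in SK-MEL-28, siNC first. All libraries of SK-MEL-28 were below those of A375, with a log2 difference of -1.55 (SE 0.14), or 2.92-fold lower (edgeR adjusted p = 7.63e-05). The 9 genes split into 1 higher in SK-MEL-28, 4 lower and 4 that did not pass. Of all 16742 genes tested, 67.7% passed, 33.3% higher and 34.4% lower, so 5 of 9 is no more than the share over all genes. The CPM, counts scaled to library size, of the lines did not overlap for 6 of the 9 genes, against 83.3% of all genes tested. The median log2 difference was -0.29 over the 9 genes and -0.04 over all genes.

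The remaining genes of the pathway were taken from lists of general knowledge. Their counts stand beside 33.3% higher and 34.4% lower in SK-MEL-28 over all genes tested. Among loading chaperones and trimming peptidases, 3 of 9 were higher in SK-MEL-28 and 3 lower, with CANX, a chaperone of new heavy chains, at 0.97, PDIA3, a member of the loading complex, at 0.39, and TAPBPL, a tapasin-related editor, at -0.50 on the log2 scale. Of the 5 immunoproteasome and PA28 genes, PSME2, a subunit of the proteasome activator, was higher by 0.36 and 4 did not pass. Of the 14 genes of the constitutive proteasome, 4 were higher and 2 lower, led by PSMA1 at 0.90, PSMA5 at 0.69 and PSMA7 at 0.44. These lists had median log2 differences of 0.03, 0.05 and 0.03.

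Of 15 transcription factors and chromatin regulators of class I genes, 9 were lower in SK-MEL-28 and 3 higher, with a median of -0.36. Over all genes tested, 34.4% were lower and 33.3% higher. The list holds activators such as IRF1 together with the Polycomb genes EED, EZH2 and SUZ12, so 9 is not a count of activators. IRF1, an interferon-regulated activator of class I genes, had 419, 401, 147 and 98 counts in the order A375 siNC, A375 siLINC00622, SK-MEL-28 siNC and SK-MEL-28 siLINC00622, a log2 difference of -1.59 (edgeR adjusted p = 0.000196). NFYB, a subunit of the CCAAT-binding factor NF-Y, differed by -1.12 and EED, a subunit of Polycomb repressive complex 2, by -1.04. Interferon receptors and signal transducers had 8 of 12 genes higher and 2 lower in SK-MEL-28, with a median of 1.06. IFNGR1, a chain of the interferon gamma receptor, differed by 1.75, and the feedback inhibitors SOCS1 and SOCS3 by 2.16 and -2.31. SOCS1 had 12, 15, 32 and 77 counts in the same order. Of 18 interferon-induced genes, 12 were higher and 4 lower, with IFI6 at 2.75, PARP9 at 2.21 and GBP2 at -2.18. GBP2 had 205, 582, 74 and 63 counts in the same order, so its 2 libraries of A375 differed from each other.

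Class II presentation had the median farthest from 0 among the pathway lists. All 9 of its tested genes were lower in SK-MEL-28, with a median log2 difference of -6.11. CD74, the invariant chain, had 32636 and 43474 counts in A375 and 236 and 275 in SK-MEL-28. HLA-DRA, the alpha chain of HLA-DR, had 6427 and 8865 counts in A375 and 53 and 56 in SK-MEL-28. HLA-DOA, a chain of a class II loading regulator, had 258 and 456 counts in A375 and 0 and 3 in SK-MEL-28. HLA-DOB, the class II gene beside TAP2, was not in the list and was higher in SK-MEL-28, with 7, 15, 38 and 45 counts, the A375 libraries first, and a log2 difference of 2.10 (edgeR adjusted p = 0.0014). Surface turnover regulators had 3 of 8 higher, TMED10, a cargo receptor, among them at 1.26, and 2 lower, the ubiquitin ligases WWP2 at -1.01 and MARCHF9 at -0.71. Of 9 ligands of NK cells and checkpoint receptors, 2 were higher, MICA among them at 1.38, and 4 lower, among them ULBP2 at -1.33.

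**Figure D3:**
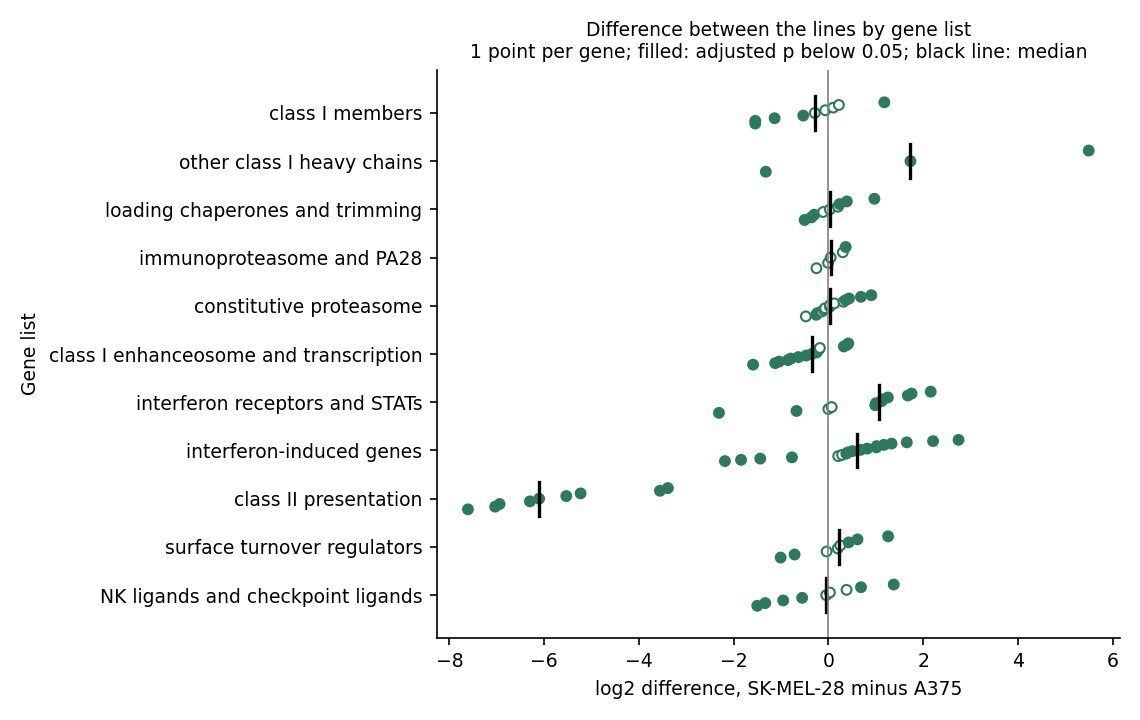
Log2 difference of SK-MEL-28 minus A375 (horizontal axis) for each gene of the pathway lists, with 1 point per gene, filled where the edgeR adjusted p is below 0.05, and a black line at the list's median. The class II genes lie left of all others with a median of -6.11, and the 9 class I genes, in the top row, have a median of -0.29.

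Knockdown of LINC00622 was compared within each line as the ratio of 1 library to another, which has no replicate check. Ratios are log2 values of siLINC00622 over siNC after TMM scaling, with 95% Clopper-Pearson intervals that cover counting error only. In neither line did a member pass 1.5-fold, against 11.0% of 15442 genes in SK-MEL-28 and 8.86% of 16021 in A375. Over the 9 genes the median ratio was -0.08 for SK-MEL-28, against 0.08 for A375.

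TAP2 and ERAP1 had intervals below 0 in both lines. TAP2 went from 880 to 614 counts in SK-MEL-28, which gave -0.55 (interval -0.70 to -0.40), and from 1022 to 1006 counts in A375, where the siLINC00622 library was deeper, which gave -0.23 (interval -0.36 to -0.11). ERAP1 went from 2123 to 1634 counts in SK-MEL-28, or -0.41 (interval -0.50 to -0.32), and from 2175 to 2229 in A375, or -0.17 (interval -0.26 to -0.09). Intervals below 0 in both lines were found for 11.9% of 14721 genes, and above 0 in both, as for HLA-E at 0.07 and 0.08, for 11.0%. In the test across the lines, TAP2 had an effect of -0.38 (SE 0.12; edgeR adjusted p = 0.232) and ERAP1 of -0.28 (SE 0.11; edgeR adjusted p = 0.292), and neither passed. None of the 9 genes passed in edgeR's test, 2, TAP2 and ERAP1, had an unadjusted p below 0.05, and DESeq2 called none of the 8 to which it gave an adjusted p. Over all genes, edgeR called 0.448%, 75 genes, and 14.5% had an unadjusted p below 0.05.

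The remaining members had no interval apart from 0 on the same side in both lines. In A375, HLA-C was at 0.23 (interval 0.15 to 0.32), B2M at 0.17 (interval 0.14 to 0.21) and TAP1 at 0.16 (interval 0.03 to 0.29), while in SK-MEL-28 they were at 0.05, -0.02 and -0.08 with intervals that include 0. TAPBP was at -0.15 (interval -0.23 to -0.06) in SK-MEL-28, against -0.01 in the other line. HLA-B and NLRC5 had intervals that include 0 in both lines, HLA-B at -0.08 and 0.05 and NLRC5 at 0.17 and 0.14, SK-MEL-28 first. No gene of the other pathway lists passed the treatment test either. PDCD1LG2, an inhibitory ligand of PD-1, was past 1.5-fold in the same direction in both lines, at -1.03 and -0.59, on 36 counts or fewer and with intervals that include 0. Over all genes, 263 of 14721 were past 1.5-fold in the same direction in both lines.

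**Figure D4:**
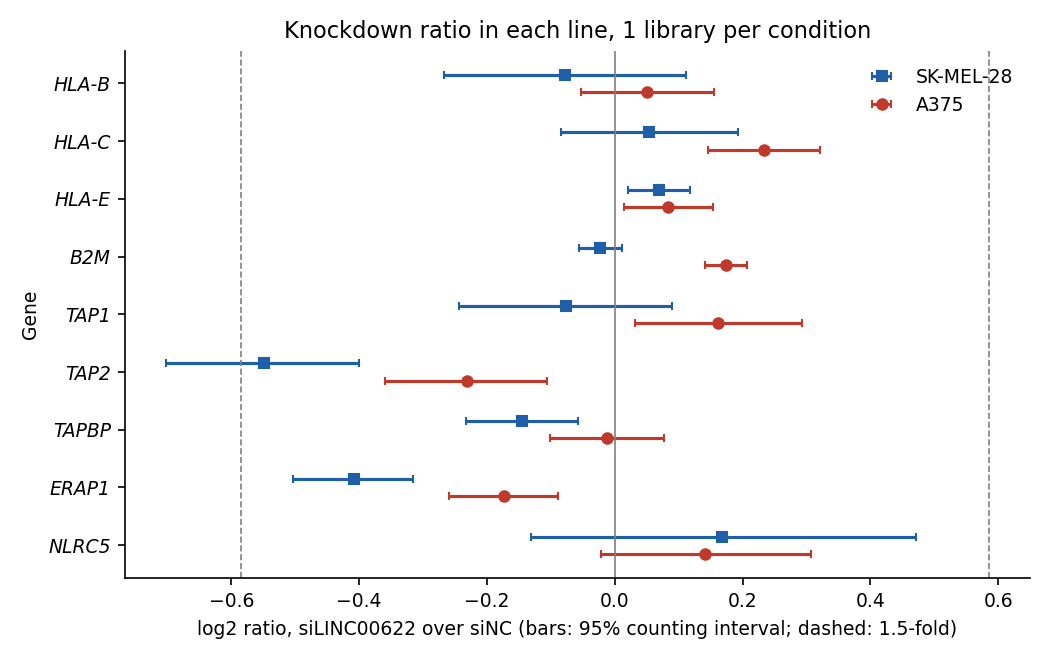
Log2 ratio of siLINC00622 over siNC (horizontal axis, bars are 95% counting intervals) for the 9 genes in SK-MEL-28 (squares) and A375 (circles), with dashed lines at 1.5-fold and 1 library per condition. TAP2, at -0.55 and -0.23, and ERAP1, at -0.41 and -0.17, have intervals below 0 in both lines, and no ratio passes a dashed line.

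The chromosomal neighbours of the members did not share 1 direction. Between HLA-F and TAPBP on chromosome 6, 86 tested genes in no list had a median log2 difference between the lines of 0.04. Of them, 24 were higher in SK-MEL-28 and 20 lower, against 33.3% and 34.4% of all genes tested. That set leaves out listed class II genes. Of the 10 tested genes around TAP2, class II genes among them, 7 were lower and 1 higher (median -3.47). TAP1, with some of the same neighbours, had 5 lower and 1 higher (median -1.84). HLA-B and HLA-C leaned the other way, with 5 and 6 neighbours higher and 3 lower for each. Chromosome 6 without the members had 315 of 776 genes higher and 176 lower (median 0.19). PSMB8 and PSMB9, the immunoproteasome genes on either side of TAP1, differed by 0.05 and -0.25 and did not pass. RPL3P2, which overlaps the HLA-B model and lies beside HLA-C, differed by -0.62 (edgeR adjusted p = 0.0448). It had 79 and 82 counts in A375 and 45 and 48 in SK-MEL-28, siNC first. GNL1, beside HLA-E, was at 0.18 and did not pass (edgeR adjusted p = 0.109). CAST, which overlaps ERAP1, differed by -0.39 (edgeR adjusted p = 0.0135) and had knockdown ratios of -0.14 and 0.16, SK-MEL-28 first. TRIM69, beside B2M, differed by 1.41, CPNE2, beside NLRC5, by -0.55 and RGL2, beside TAPBP, by -0.45 (edgeR adjusted p = 7.99e-05, 0.00774 and 0.00657). On the other sides of B2M and TAPBP, SPG11 at -0.07 and ZBTB22 at 0.33 did not pass. Over the 4 libraries, the profiles closest to the median of the 9 genes, by root mean square distance of centred log2 CPM, were those of ZFP1 at 0.0090, CEP44 at 0.014 and RTF1 at 0.017, a description over 4 points.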

How the data were processed

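RNA-seq libraries of A375 and SK-MEL-28 cells with siNC or siLINC00622, 1 per condition, were grouped by their labels. The submitters' processing notes name the build hg19 and the tools HISAT2, TopHat2, Bowtie2 and HISAT without roles. The counting and annotation are not given in the sources used here. The counts deposited by the authors are whole reads per gene, without normalization. The CPM values deposited by the authors are counts scaled to the library total. The FPKM values deposited by the authors are CPM per kilobase of 1 length per gene. The TPM values deposited by the authors, scaled for length and library, were not used.

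The 16742 genes that reached 10 counts in 1 library or more were fitted with edgeR 4.0.16 (R 4.3.3; TMM, quasi-likelihood, treatment and line as additive terms, 1 residual degree of freedom), with Benjamini-Hochberg adjustment over all of them and a threshold of 0.05. The treatment effect is paired by line. The spread of each gene was moderated toward that of all genes, with 5.781 prior degrees of freedom. Within a line, TMM ratios used a prior count of 2. On simulated counts of 16442 genes for the comparison of the lines, 74 of 100 planted 2-fold and 98 of 100 planted 4-fold changes were recovered. Only 200 genes were changed there, with the same dispersion for all genes, against 67.7% of genes called in these data. These rates are therefore not the power of the test on the real counts. Reads carry no molecular identifiers, so intervals cover counting error only. Alternatives covered DESeq2 1.42.0, limma 3.58.1, scaling, filters, prior count, summed heavy chains and left-out libraries.

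Members and lists were chosen with earlier results of these data known. Named are the members, from each list the 3 largest differences between the lines that passed and any gene past 1.5-fold in the same direction in both lines, LINC00622, some of the adjoining genes and the 3 nearest profiles. An item of the lists is not reported here.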

Additional observations from a re-analysis of the deposited data

Results flagged for a closer look

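For 3 of the 9 genes the knockdown ratio was below 0 in SK-MEL-28 and above 0 in A375, with 1 library per condition, and the difference between the lines was not tested. On the log2 scale HLA-B was at -0.078 for SK-MEL-28 against 0.051 for A375, with both counting intervals including 0. B2M was at -0.023 against 0.17, and TAP1 at -0.077 against 0.16, each with an interval apart from 0 in A375 alone. How many of the 14721 genes with ratios in both lines change sign was not counted, so 3 of 9 cannot be called unusual. Subtracting the A375 ratio from that of SK-MEL-28 gave -0.13 for HLA-B, with a counting interval of -0.34 to 0.08. It gave -0.20 for B2M (-0.24 to -0.15) and -0.24 for TAP1 (-0.45 to -0.03). TAP2, with ratios below 0 in both lines, differed more, at -0.32 (-0.51 to -0.12), and ERAP1 was at -0.23 (-0.36 to -0.11).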

How the results depend on the processing

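The line difference of summed heavy chains depended on which genes were summed. The sum of HLA-B, HLA-C, HLA-F, HLA-H and HLA-L, put in place of HLA-B and HLA-C, differed by 0.27. HLA-F gave 2490 of its 3927 counts in SK-MEL-28 siNC, and 58 of 3345 in A375 siNC. The members counted once with this sum were 2 higher and 2 lower in place of 1 and 4. The sum of HLA-B and HLA-C alone kept their direction. Both sums were chosen after seeing the data, and the planned sum over the whole list is not reported. Scaling by library totals moved the median line difference of all genes by -0.17. With it the line difference of B2M was -0.069, as with limma on FPKM, and that of TAP2 passed, as it did with at least 100 counts and with limma (adjusted p = 0.0156, 0.0469 and 0.0256). The treatment effect of HLA-B, 0.0019, was -0.019 with library totals, -0.0028 with at least 100 counts and -0.018 with limma. The line difference of ERAP1, -0.067, was 0.023 without the A375 siNC library and 0.13 without the SK-MEL-28 siLINC00622 library. Its range was -0.26 to 0.13 over the 4 left-out libraries. Between the siNC libraries alone, with no test, the line difference was 0.21 for B2M, -0.12 for TAP2 and 0.063 for ERAP1. Between the siLINC00622 libraries alone it was 0.011, -0.44 and -0.18 for the same genes. Leaving out 1 library gave between 3 and 5 members lower and 1 higher. Genes called for the treatment numbered 75, and 305 with DESeq2, 1 with library totals, 121 without a filter, 182 with at least 100 counts and 1 with limma, and the cause was not tested. B2M in A375 siNC was at 78.0 FPKM, and at 394 per kilobase of its principal transcript, an alternative also added after seeing the data. No other paired analysis was possible because each condition has 1 library, and the treatment fit already pairs by line. Depth limits the ratios of low genes, and 1 residual degree of freedom limits every test.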
